A study of Mus musculus with 31 samples.

Results

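Genes of astrocytes and of the oligodendrocyte lineage were followed through ribosome-bound RNA of mouse sensory neurons and of control tissue. The set held 10 genes of the 55536 in the count tables: Slc1a2, Slc1a3, Slc6a11, Aqp4, Gfap, Gja1, Aldoc and Aldh1l1, known from astrocytes, and Olig1 and Olig2, known from the oligodendrocyte lineage. They were taken by symbol, through their Ensembl identifiers, from both tables, and all 10 were found. The set was chosen by measured values, namely the levels of these genes in central axon libraries, so every contrast with those libraries is given here as a description without a test.

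In translating ribosome affinity purification (TRAP), ribosomes that carry a tagged protein are pulled down with an antibody and the RNA bound to them is sequenced. All mice carried the conditional allele L10a-eGFP-fl/fl, which encodes ribosomal protein L10a fused to a green fluorescent protein. In the Cre libraries the mice also carried Nav1.8-Cre, which recombines that allele in cells that express the sodium channel gene Scn10a, mostly nociceptors, or have done so. The control libraries came from mice with L10a-eGFP-fl/fl alone, so that they hold RNA recovered without a tagged ribosome. Batch 1 held central axons, taken from lumbar dorsal root with spinal cord, and somas, taken from lumbar dorsal root ganglia, with 4 Cre and 4 control libraries each. Batch 2 held peripheral axons from sciatic nerve (4 Cre and 3 control libraries) and further ganglion somas (4 Cre and 4 control libraries). The labels give no age or treatment, and do not say whether a library holds 1 animal or a pool. Spinal cord entered the batch 1 axon libraries only, so tissue and batch cannot be told apart between the central and the peripheral axon.

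Astrocytes clear glutamate through the transporters GLT-1 and GLAST, take up GABA through GAT-3, and are coupled by gap junctions of connexin 43. Gfap encodes the intermediate filament by which reactive astrocytes are usually recognised, and Aqp4 the water channel of their end feet. Olig1 and Olig2 encode basic helix-loop-helix transcription factors that direct the formation of oligodendrocyte precursors in the spinal cord. Peripheral nerve and ganglion contain Schwann cells and satellite glia in place of these cells, and some astrocyte genes, among them Slc1a3, Gja1, Gfap and Aldoc, are also used by ganglion glia, by Schwann cells or by neurons.

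Coordinates are in GRCm38, the assembly of mm10. Gfap spans chr11:102887336-102900912 on the minus strand and Aldoc chr11:78322968-78327781 on the plus strand. Olig2, at chr16:91225457-91228677, and Olig1, at chr16:91269772-91271933, are neighbours on the plus strand. Slc1a2 is at chr2:102658659-102790784 (plus), Slc1a3 at chr15:8634124-8710764 (minus), Gja1 at chr10:56377330-56402513 (plus), Slc6a11 at chr6:114131241-114249952 (plus) and Aldh1l1 at chr6:90486427-90600203 (plus). Exons of Aldh1l1 share 11% of their length with the opposite-strand gene Gm15756, those of Olig1 7.26% with Gm15966 and those of Slc1a2 1.44% with Gm13872. Whether the counting used strand is not given in the sources used here, so reads of these stretches cannot be told apart.

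Promoter windows are shown for Gfap, Olig2 and Aldoc because these genes stand for the 3 patterns in the levels: almost confined to central axon libraries and high, almost confined and low, and high there but also present in ganglion somas. Each window runs from 250 bases before to 50 bases after a transcription start in RefSeq (GRCm38.p6, 5′ to 3′ on the strand of the gene), and 8 of the 10 genes had at least 1 window, 9 windows in all. 5 motifs were searched on both strands, and capitals mark every match.
Gfap, chr11:102897151-102897450, minus strand: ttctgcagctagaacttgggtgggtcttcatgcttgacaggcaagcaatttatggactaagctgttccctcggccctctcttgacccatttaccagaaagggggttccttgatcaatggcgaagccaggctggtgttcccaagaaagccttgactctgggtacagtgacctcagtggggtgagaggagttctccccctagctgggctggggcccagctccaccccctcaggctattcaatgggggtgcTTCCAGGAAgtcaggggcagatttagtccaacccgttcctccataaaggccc
Olig2, chr16:91225300-91225599, plus strand: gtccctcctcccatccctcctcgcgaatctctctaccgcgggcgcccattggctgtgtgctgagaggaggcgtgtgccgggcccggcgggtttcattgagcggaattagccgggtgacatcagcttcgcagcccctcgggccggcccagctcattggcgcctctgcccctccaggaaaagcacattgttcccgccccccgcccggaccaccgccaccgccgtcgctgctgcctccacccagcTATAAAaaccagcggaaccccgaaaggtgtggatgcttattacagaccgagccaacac
Aldoc, chr11:78322823-78323122, plus strand: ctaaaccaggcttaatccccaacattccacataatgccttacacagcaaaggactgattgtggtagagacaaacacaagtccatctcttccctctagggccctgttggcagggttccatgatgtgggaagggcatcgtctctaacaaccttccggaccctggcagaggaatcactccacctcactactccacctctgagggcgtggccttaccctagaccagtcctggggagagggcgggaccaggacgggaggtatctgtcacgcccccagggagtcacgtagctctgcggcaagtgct

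The capitals in the Gfap window are a match to TTCNNNGAA, the spacing bound by STAT factors, a motif found in 8.3% of the 32851 windows of this length in the table and in 3 of the 9 windows of these genes (Gfap, Slc1a3 and the other Aldoc window). Those in the Olig2 window are the letters TATAAA, close before the annotated start, found in 13.6% of all windows and also in that of Slc1a3. The Aldoc window shown holds no match. Of the E-boxes, CAGCTG (16.3% of all windows) was found in the Slc1a2 window and CATCTG (17.2%) in none of the 9, and the nuclear factor I palindrome (0.0365%) was found in none. The Olig2 window had 65% G and C with 25 CpG, against 55.7% with 3 CpG in the Gfap window and 56.3% with 8 CpG in the Aldoc window shown. The medians over all windows were 52.7% and 7 CpG.

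Total counts ran from 3601399 to 19637292 per library, so that 3 counts, used as the detection floor, correspond to 0.153 to 0.833 CPM (counts scaled to a library total of 1000000). Scn10a, which marks the Nav1.8 lineage, stood at 421, 105, 123 and 45.1 CPM in libraries 1 to 4 of the central axon with Cre and at 2.10, 0, 0 and 29.9 CPM in their controls, and the groups did not overlap. In the peripheral axon and in the somas of both batches the Scn10a ranges of Cre and control overlapped. Rpl10a, the gene of the tagged protein, was at 49.9 ± 12.3 CPM (SD, n = 4) in central axon Cre libraries and at 58.1 ± 36.9 CPM (SD, n = 4) in their controls, a difference within the SD. Batch 1 soma control 3 stands apart: its TMM scaling factor was 0.0547, and Scn10a was at 33.4 CPM there against 89.2 to 624.6 CPM in the other soma controls of batch 1. The labelled tissues carried their markers. A list of 10 spinal neuron genes summed to 232 to 647 CPM in the central axon with Cre and 479.9 to 1353 CPM in their controls, and to at most 16.3 CPM in any of the other 23 libraries. A list of 10 Schwann cell genes summed to 6984 to 17675 CPM in the peripheral axon Cre libraries and 5819.5 to 9831 CPM in their controls.

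The glutamate transporter genes were found almost wholly in the central axon libraries, with and without Cre. Slc1a2, which encodes GLT-1, had 47.7, 135, 28.7 and 82.4 CPM in Cre libraries 1 to 4 of the central axon and 209.7, 309.7, 93.0 and 92.6 CPM in controls 1 to 4. Slc1a3, which encodes GLAST, had 49.8, 195, 86.9 and 156 CPM in the Cre libraries and 264, 417, 56.2 and 143 CPM in the controls. Within both genes the Cre and control ranges overlapped, and control 3 was the only control below the median of the Cre libraries for Slc1a3. Outside the central axon Slc1a2 reached at most 8.58 CPM, in peripheral axon control 1, and Slc1a3 at most 18.5 CPM, in peripheral axon Cre 1. All 8 central libraries lay above the highest of the other 23 libraries for both genes.

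Slc6a11, the gene of the GABA transporter GAT-3, had 53.9, 112, 54.0 and 202 CPM in the central axon with Cre and 259, 182, 65.9 and 99.0 CPM in controls. Elsewhere 16 of 23 libraries were at or below the floor of 3 counts, and the highest had 7.53 CPM (batch 2 soma control 8). The order of libraries was not the same as for Slc1a2: the highest value of Slc6a11 was in control 1 and that of Slc1a2 in control 2.

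Of the structural and membrane genes, Gfap was the highest in the central axon, in CPM as well as per kilobase of exon, and among the nearest to absent elsewhere. Gfap had 111, 509, 692 and 717 CPM in the central axon with Cre and 443, 591, 1074 and 1530.0 CPM in controls. Among the other 23 libraries 12 had no count and 17 were at or below the floor. The exceptions included batch 2 soma control 5 at 5.53 CPM and batch 1 soma Cre 4 at 5.29 CPM (40 counts). Aqp4 had 32.8, 144, 111 and 181 CPM in the central axon with Cre, 142, 299, 505 and 187 CPM in controls and at most 3.95 CPM elsewhere. Both genes were lowest in central axon Cre 1.

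Gja1, which encodes connexin 43, broke the pattern. It had 19.3, 57.5, 32.2 and 109 CPM in the central axon with Cre and 107, 54.4, 41.1 and 222 CPM in controls, but 191 CPM (1555 counts) in batch 1 soma control 1 and 22.2, 82.6, 44.4 and 58.5 CPM in batch 2 soma controls 5 to 8. Only 1 of the 8 central libraries exceeded the highest other library. Of the sum of the 8 group means of Gja1, 51.2% lay in the 2 central axon groups, against 93.2% for Slc1a3 and 99.8% for Olig1.

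The metabolic enzymes differed in the same respect. Aldoc, which encodes the brain form of the glycolytic enzyme aldolase, had 445, 967, 1003 and 1520.0 CPM in the central axon with Cre and 1066, 1237, 1939 and 1568 CPM in controls. It was also present at 333, 321, 329.9 and 138 CPM in batch 1 soma Cre libraries and 300.2, 208, 335 and 380.3 CPM in batch 2 soma Cre libraries 5 to 8. All central libraries were still above all others, by a narrow margin: 445 CPM in central axon Cre 1 against 380.3 CPM in batch 2 soma Cre 8. Aldh1l1, which encodes a folate enzyme used as a general astrocyte marker, had 35.7, 126, 98.0 and 101 CPM in the central axon with Cre, 163, 98.6, 21.98 and 173 CPM in controls and at most 9.08 CPM elsewhere.

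The 2 oligodendrocyte lineage factors were the most restricted of the set. Olig1 had 56.6, 132, 64.1 and 257 CPM in the central axon with Cre and 252, 389, 229 and 711 CPM in controls, and no more than 1.04 CPM in any of the other 23 libraries. Olig2 had 29.2, 51.0, 36.2 and 69.5 CPM in the central axon with Cre and 32.6, 0, 164 and 44.0 CPM in controls. Central axon control 2 therefore had no count of Olig2 among 7816230, while it had 3038 counts of Olig1. The floor in that library was 0.384 CPM, which covers counting error only and does not limit the level in the tissue. Neither gene had a count in any of the 7 peripheral axon libraries, and Olig2 had none in all 15 libraries of batch 2.

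**Figure D1:**
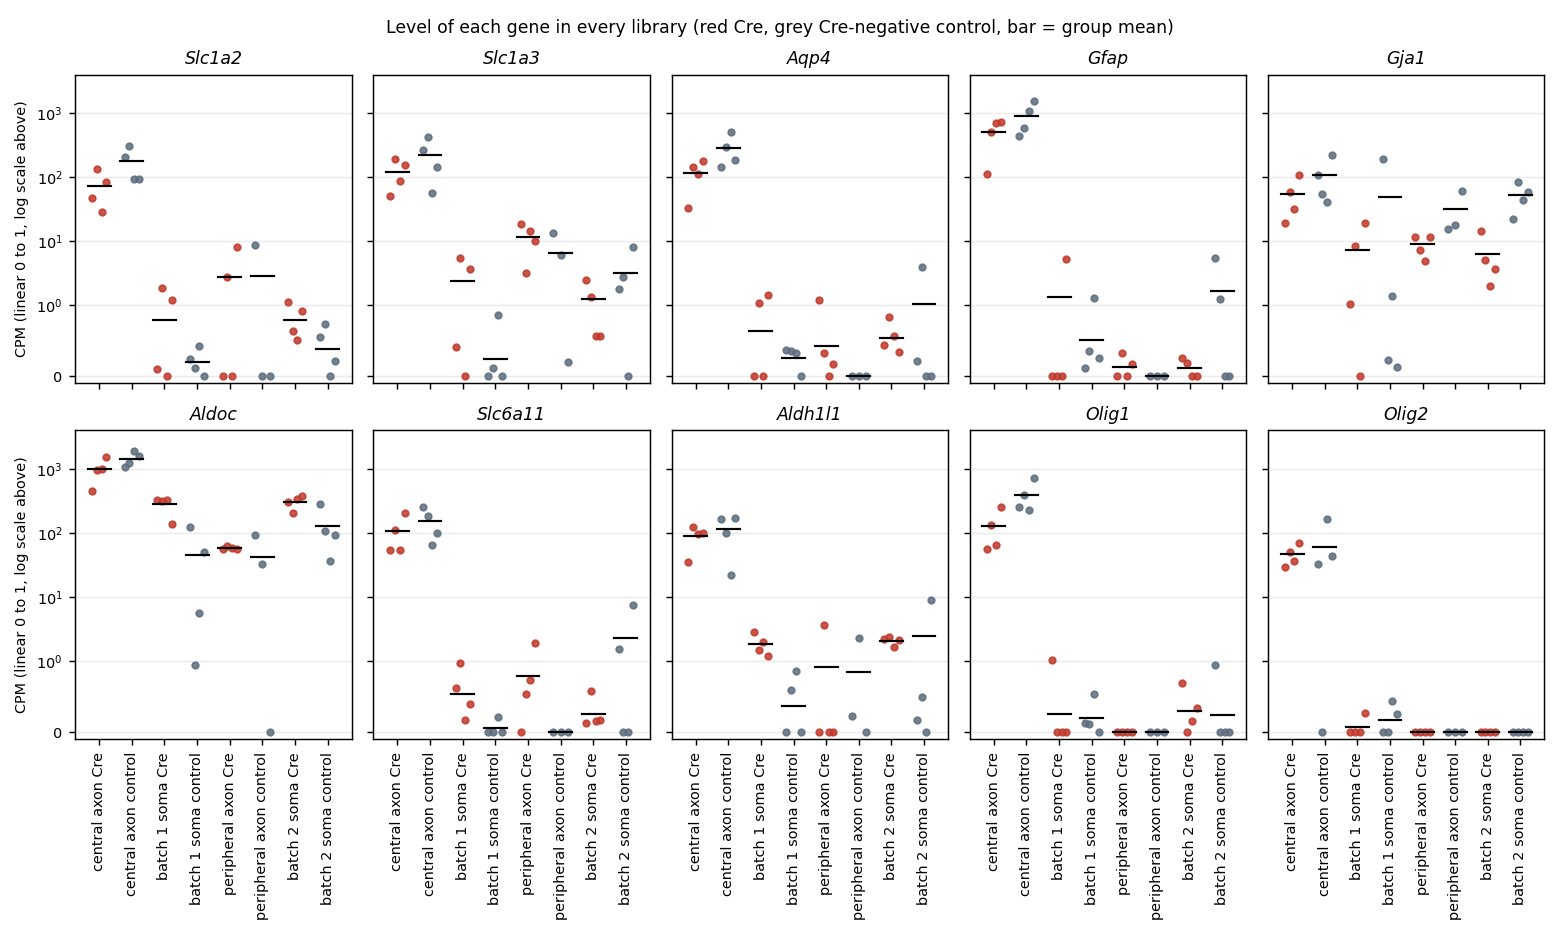
Level of each of the 10 genes (CPM, axis linear from 0 to 1 and logarithmic above) in every library of the 8 groups, red for Cre and grey for Cre-negative control, with a bar at the group mean. The central axon groups at the left of each panel are the highest for 9 genes in nearly every library, while Gja1 reached 191 CPM in a ganglion control and Aldoc stayed at 138 to 380.3 CPM in soma Cre libraries.

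Within the central axon the question was whether these genes differed between Cre and control libraries. All 10 were lower in the Cre libraries on average, and for none did the ranges of normalised CPM fail to overlap, against 8.14% of all 14189 genes tested. The log2 fold changes from edgeR, given here without a p, ran from -1.64 (SE 0.537) for Olig1 to -0.34 (SE 0.637) for Aldh1l1. Aqp4 stood at -1.26 (SE 0.530), Slc1a2 at -1.22 (SE 0.578), Gja1 at -0.99 (SE 0.709) and Gfap at -0.85 (SE 0.538). Slc1a3 was at -0.83 (SE 0.593), Aldoc at -0.55 (SE 0.346), Slc6a11 at -0.52 (SE 0.563) and Olig2 at -0.36 (SE 1.29). The median of the 10 was -0.84, beside 0.11 for all genes. Without control 3, Olig2 was higher in the Cre libraries (0.84), as it was under limma voom and with a replicate block, and without Cre 1 the median of the 10 was -0.55.

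Most genes of further lists for these cell types lay on the same side. Of 22 further astrocyte genes 20 were tested, 17 were lower in the Cre libraries and 3 of these did not overlap (1.37% of all genes did not overlap in that direction), with a median of -0.67. Of 10 oligodendrocyte precursor genes 8 were lower and 2 did not overlap, with a median of -0.55. Of 11 central myelin genes 8 were lower, with a median of -1.05. Lists of other cell types lay on that side too, some of them only slightly. Schwann cell genes were lower in 6 of 10 cases (median -0.31), and 1 was higher without overlap. Their summed CPM was higher with Cre, 445 ± 123 against 343 ± 203 in controls (mean ± SD, n = 4). Endothelial genes were lower in 3 of 5 cases (median -0.11). Fibroblast genes were lower in 5 of 6 cases (median -1.25), satellite glia genes in 6 of 6 (-0.56), microglia and macrophage genes in 4 of 5 (-0.77) and myelin genes shared with Schwann cells in 7 of 8 (-1.03). Kcnj10 and Glul are in both the further astrocyte and the satellite glia list. Spinal neuron genes were lower in 9 of 10 cases (median -0.56). The 9 nociceptor genes went the other way: all were higher in the Cre libraries, 6 without overlap (6.77% of all genes in that direction), with a median of 5.13. Because CPM is a share of the total, a larger share of nociceptor RNA and a smaller amount of glial RNA cannot be told apart in these values, nor can fewer cells of a type and less RNA per cell.

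The central axon was then set against the ganglion soma of the same batch. Among Cre libraries all 10 genes were higher in the central axon and 9 did not overlap, against 13.5% of 14480 genes not overlapping in that direction. These libraries chose the genes, so nothing is read from the count. The median log2 difference was 6.63, or 6.45 with Olig2 at its bound, beside 0.05 for all genes. Aldoc differed least, by 1.30 (SE 0.404), followed by Gja1 with 2.53 (SE 0.996), whose ranges overlapped. Aldh1l1 and Slc1a3 differed by 5.09 (SE 0.484) and 5.29 (SE 0.893), and Slc1a2 by 6.15 (SE 0.877). Slc6a11 and Aqp4 differed by 7.10 (SE 0.608) and 7.15 (SE 0.888), Gfap by 8.29 (SE 1.27) and Olig1 by 8.37 (SE 0.972). The values of Gfap and Olig1 rest on 1 soma library each. Without soma Cre 4, which held all 40 soma counts of Gfap, that gene was at least 1211-fold higher in the axon, and without soma Cre 1, which held all 10 of Olig1, that gene was at least 289-fold higher. Olig2, which had at most 3 counts in every soma Cre library, was at least 107-fold higher in the axon, a limit that was 87.8 without central axon Cre 4.

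The same held among libraries without Cre. There 9 genes were tested, all were higher in the central axon and 8 did not overlap, against 11.6% of 9202 genes in that direction. Taking 3 counts per library as the floor, Aqp4 was at least 415-fold and Slc6a11 at least 216-fold higher, but these limits were 56.8 and 30.9 without soma control b. The normalised floor of the soma controls was then 2.83 CPM, against 0.556 CPM with all libraries. Soma control 3 had a TMM factor of 0.300 in the fit with all libraries. Without soma control 3 the limits were 664 for Aqp4 and 370 for Slc6a11, at a floor of 0.405 CPM. Its part in the limits without soma control b was not tested. Slc1a2 differed by 8.33 (SE 2.35) on the log2 scale, Slc1a3 by 7.91 (SE 2.37), Gfap by 9.23 (SE 1.81) and Olig1 by 9.38 (SE 2.09). Aldh1l1 differed by 6.70 (SE 2.53) and Aldoc by 4.62 (SE 1.37), while Gja1 differed by 0.83 (SE 1.96) and overlapped. Without soma control 1, the library with 191 CPM, the difference of Gja1 was 5.61. The median of the 9 was 8.33 (7.91 with the bounds), beside -0.16 for all genes. These sizes depended on the scaling and on single soma controls. The median was 9.77 under scaling by library size alone and 6.68 under RLE scaling. Without soma control b the median was 4.75, and Slc1a2 was at 5.15, Slc1a3 at 4.35, Gfap at 5.71, Olig1 at 6.03 and Aldh1l1 at 3.33. Without soma control 3 the median was 10.02, and Slc1a2 was at 10.17, Slc1a3 at 11.79, Gfap at 11.57, Olig1 at 11.83 and Aldh1l1 at 8.80. Every one stayed higher in the central axon.

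The 10 genes were ordered by their levels per kilobase of exon. In the central axon Cre libraries Aldoc led with 301 ± 135 CPM per kb (mean ± SD, n = 4), followed by Gfap with 120.2 ± 66.4 and Olig1 with 58.9 ± 43.0. Aldoc stood above Gfap by more than the larger SD, whereas Gfap and Olig1 did not differ beyond it. Slc6a11 (20.9 ± 13.9), Aldh1l1 (19.97 ± 8.51), Aqp4 (18.8 ± 10.1), Olig2 (18.4 ± 7.05) and Slc1a3 (14.3 ± 7.69) followed within their SDs of one another. Slc1a2 (5.60 ± 3.57) and Gja1 (5.32 ± 3.88) were the lowest. In the controls the first 3 and the last 2 were the same genes, with Aldoc at 445 ± 118, Gfap at 216 ± 117 and Olig1 at 183 ± 103 CPM per kb. Olig1 was thus far above Olig2 (23.8 ± 28.4) in the controls. The lowest genes per kb, Slc1a2 and Gja1, also had the longest exon totals of the set, 13.1 and 10.3 kb over all annotated exons. In CPM without this scaling Olig2 was the lowest, with means of 46.5 in the Cre libraries and 60.2 in the controls.

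**Figure D2:**
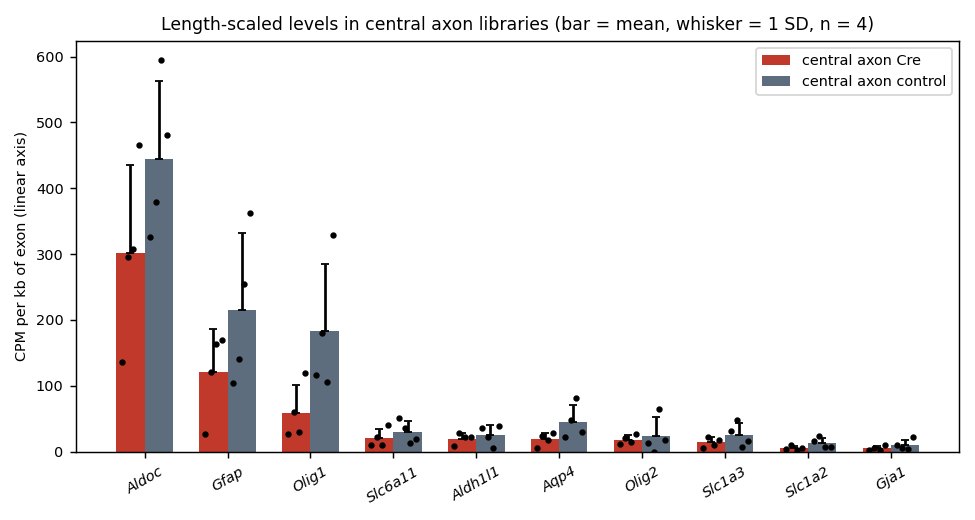
Length-scaled level (CPM per kb of exon, linear axis) of the 10 genes in the central axon libraries, with bars for the mean, whiskers for 1 SD (n = 4 per group) and points for libraries, red for Cre and grey for control. Aldoc, Gfap and Olig1 lead in both groups, and Slc1a2 and Gja1 are at the low end.

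Among the Cre libraries the genes were low and high together to a large extent. Central axon Cre 1 held the lowest value of its group for 9 of the 10 genes, and Cre 4 held the highest for 7 and Cre 2 for 3. The sum of the 8 astrocyte genes was 795, 2245, 2105 and 3069 CPM in Cre libraries 1 to 4, and the nociceptor sum in the same libraries was 8668, 3433, 2716 and 1688 CPM, highest where the astrocyte sum was lowest. The spinal neuron sum was likewise lowest in Cre 1, at 232 CPM. The part of these in the differences between libraries was not tested. In the controls the astrocyte sum ran over a narrower range, 2654 to 4014 CPM.

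The genes did not keep fixed proportions, however. Ratios within a library do not depend on its total. Counts of Olig1 per count of Olig2 were 1.94, 2.58, 1.77 and 3.70 in central axon Cre libraries 1 to 4 and 7.74, 1.40 and 16.2 in controls 1, 3 and 4, with no ratio for control 2. Counts of Gfap per count of Aldh1l1 were 3.11, 4.04, 7.06 and 7.09 in the Cre libraries and 2.71, 5.99, 48.9 and 8.86 in the controls. Control 3 accounts for the extreme, with 8698 counts of Gfap and 178 of Aldh1l1. Counts of Slc1a2 per count of Slc1a3 varied less in the controls, 0.793, 0.743, 1.65 and 0.648, and were 0.958, 0.695, 0.330 and 0.527 in the Cre libraries. Genes with at least 10 counts numbered 15153, 10890, 7251 and 13355 in central axon controls 1 to 4 and 15035 to 15952 in the Cre libraries. Per the labels, axon libraries were made from under 100 pg of RNA. The part of either in the ratios was not tested.

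Central myelin genes varied far more than the astrocyte genes. Mobp, which encodes a protein of compact central myelin and had the most CPM of 13 such genes (not scaled for length), was at 5.47, 335, 79.4 and 559 CPM in the central axon with Cre and 12.3, 145, 2216 and 2751 CPM in controls. Gpr17, a receptor of cells that are turning into oligodendrocytes and the next in CPM, was at 8.68, 21.8, 11.6 and 59.1 and 18.3, 86.2, 99.3 and 8.50 CPM. The library with the highest Gpr17 in the controls was control 3 and that with the lowest control 4, whereas Mobp was high in both. Mog, named after its values were seen and the classical myelin surface marker, was low, at 0.755, 12.1, 1.45 and 26.6 CPM in the Cre libraries and 2.02, 0, 0 and 27.5 CPM in the controls. Of the precursor genes, Ptprz1 had the most CPM, 119, 275, 83.7 and 250.3 CPM in the Cre libraries and 538, 576, 834 and 326 CPM in the controls, and C1ql1 followed at 15.8, 16.1, 18.5 and 50.1 and 38.5, 80.0, 0 and 175 CPM. For Ptprz1 all 4 controls were above all 4 Cre libraries.

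**Figure D3:**
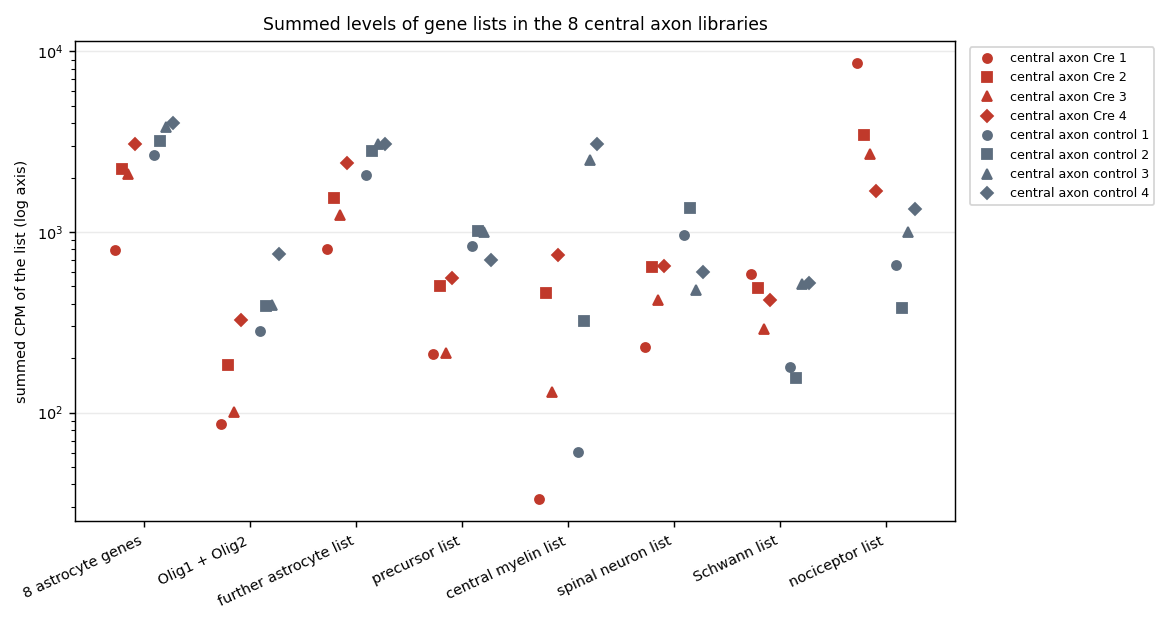
Summed CPM (log axis) of gene lists in the 8 central axon libraries, red for Cre and grey for control, with 1 symbol shape for each replicate number. The astrocyte sums lie within a factor of a few in the controls, the central myelin sums run from 60.2 to 3076 CPM there, and the nociceptor sums are above all controls in every Cre library.

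Outside the central axon most of the set was at or near the floor, and the tests there concern the few with enough counts. They use no central axon library, but genes and tests were chosen with earlier results of these data known. Batch 1 somas also stood in contrasts with the central axon, so their tests may not be independent of the choice. In batch 2 somas 5 of the 10 genes could be tested between Cre and control (Slc1a2, Slc1a3, Gja1, Aldoc and Aldh1l1). With edgeR's quasi-likelihood test and Benjamini-Hochberg adjustment none was called, and 0% of the 15280 genes were. At an unadjusted p under 0.05, 2 of the 5 and 16.4% of all genes passed, DESeq2 called 1 of the 5 and limma voom none. Gja1 is singled out after its values were seen. It had 14.5, 5.01, 1.99 and 3.605 CPM in soma Cre libraries 5 to 8 and 22.2, 82.6, 44.4 and 58.5 CPM in their controls, so that every Cre library was below every control, as for 5.19% of all genes. The log2 fold change was -2.83 (SE 0.661) with an adjusted p of 0.0725, which misses the threshold of 0.05. Over the alternatives the adjusted p ran from 0.000343 to 0.311, and it passed under DESeq2 (0.000343), under scaling by library size alone (0.0498), without control 5 (0.0237) and without control 7 (0.0381).

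Other glial and connective tissue genes stood on the same side of this comparison as Gja1. All 6 satellite glia genes were lower in the Cre somas of batch 2 and 3 of them did not overlap, beside 5.19% of all genes in that direction. The list summed to 172 to 336 CPM in Cre libraries and 492 to 2412 CPM in controls. All 6 fibroblast genes were lower too, 5 without overlap, with sums of 180.3 to 371 and 904 to 3599.7 CPM. Of the Schwann cell genes 9 of 10 were lower. With edgeR no gene of these lists was called, and 0% of all genes were. At an unadjusted p under 0.05, 3 satellite glia, 5 fibroblast and 3 of the 10 Schwann cell genes passed, beside 16.4% of all genes. DESeq2 called 3, 5 and 2 of them, scaling by library size alone 2, 4 and 1, and limma voom none. DESeq2 and scaling by library size alone also called more of all genes than the main setting, as given in the last paragraph. Cdh19 is in both the satellite glia and the Schwann cell list. The part of these lists in the difference of Gja1 was not tested.

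Aldoc went the other way in both soma batches. In batch 2 it had 300.2, 208, 335 and 380.3 CPM in Cre somas and 283, 107, 36.4 and 91.5 CPM in controls, and the ranges overlapped through control 5. The log2 fold change was 1.47 (SE 0.523) with edgeR's adjusted p at 0.195. Without control 5 it was 2.26 with an adjusted p of 0.0164. In batch 1 Aldoc had 333, 321, 329.9 and 138 CPM in Cre somas and 123, 0.939, 5.72 and 51.2 CPM in controls 1, a, 3 and b (a and b are 2 columns that share a heading). Cre 4 was the lowest of its group there, at 138 CPM, still above the highest control in CPM. On the normalised scale the groups overlapped, and the log2 fold change was 1.69 (SE 1.22) with an adjusted p of 0.487 from edgeR. In 1 fit over all groups of the batch it was 2.61 with an adjusted p of 0.0429.

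In batch 1 somas 3 genes could be tested (Gja1, Aldoc and Aldh1l1) and none was called, against 4.42% of 11667 genes with edgeR. None passed at an unadjusted p under 0.05, and neither DESeq2 nor limma voom called any. Gja1 had 1.04, 8.38, 0 and 19.2 CPM in Cre somas and 191, 0.235, 1.40 and 0.125 CPM in controls 1, a, 3 and b. Control 1 alone was high, and the log2 fold change of -3.18 (SE 2.28) was -0.62 without it. That value is on the normalised scale. In CPM controls a, 3 and b did not exceed 1.40, while Cre somas 2 and 4 had 8.38 and 19.2. The part of the scaling of control 3 in the sign was not tested. Aldh1l1 was at 2.80, 1.46, 1.98 and 1.19 CPM in Cre somas and 0, 0.587, 0.863 and 0 CPM in controls. In CPM every Cre soma was thus above every control. On the normalised scale the groups overlapped, and the log2 fold change was -1.52 (SE 1.78), beside a median of -0.45 for all genes. Control 3 had a TMM factor of 0.0547 in this fit. Without control 3, and under scaling by library size alone, Aldh1l1 was higher in the Cre somas.

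**Figure D4:**
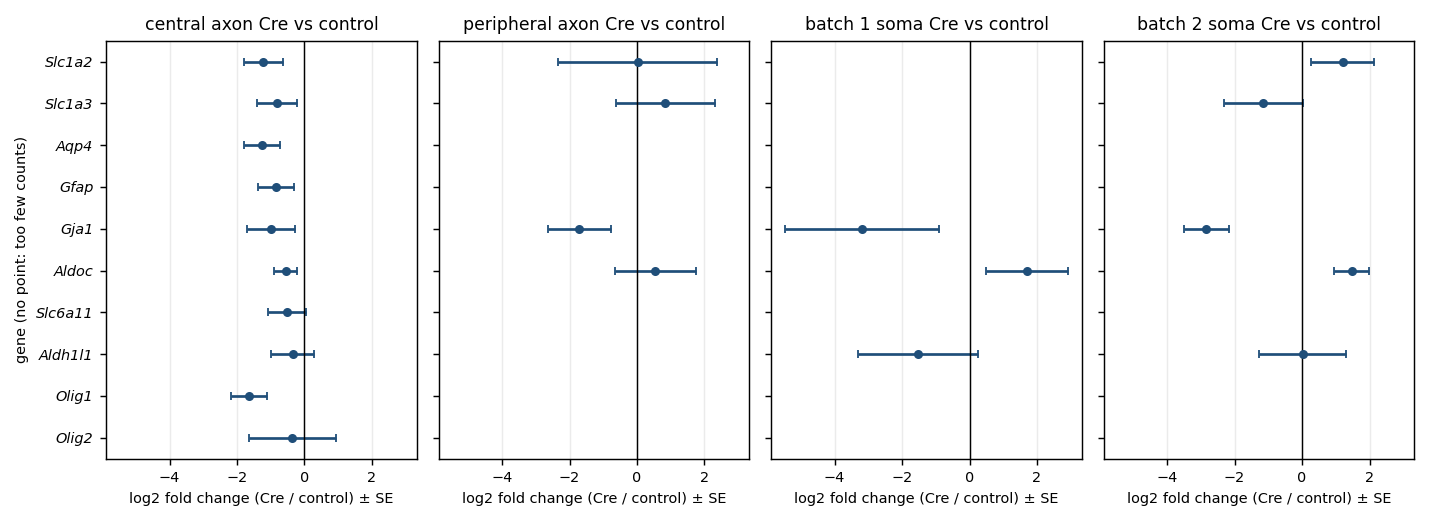
Log2 fold change of Cre over control (± SE) for each gene that had enough counts in the central axon, the peripheral axon and the somas of both batches. In the central axon all 10 points are below 0, in the batch 2 somas Gja1 is at -2.83 and Aldoc at 1.47. Genes without a point had too few counts.

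In the sciatic nerve, which contains Schwann cells but no astrocytes, 4 genes could be tested between Cre and control (Slc1a2, Slc1a3, Gja1 and Aldoc). None was called with edgeR, nor was any of the 13970 genes (0%). At an unadjusted p under 0.05 none of the 4 and 3.68% of all genes passed, and DESeq2 and limma voom called none of the 4. Gja1, named here after its values were seen, had 11.7, 7.17, 4.88 and 11.8 CPM in Cre libraries and 15.6, 17.6 and 60.7 CPM in controls 1, 2 and 4. Every Cre library was below every control, as for 2.59% of all genes, with a log2 fold change of -1.71 (SE 0.928) and an adjusted p of 1.00 after rounding. Without control 4 the log2 fold change was -0.93. Aldoc was at 55.7, 62.6, 57.6 and 55.7 CPM in the Cre libraries, the highest only 1.12 times the lowest, while its controls had 93.5, 32.4 and 0 CPM. Slc1a3 had 18.5, 3.12, 14.2 and 9.88 CPM in Cre libraries and 13.2, 6.17 and 0.196 CPM in controls. Slc1a2 was irregular, at 0, 2.79, 0 and 8.15 CPM and 8.58, 0 and 0 CPM.

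2 of the 10 genes changed between peripheral axon and soma among the Cre libraries of batch 2. Of 5 tested, Slc1a3 rose and Aldoc fell in the axon, at 31.2% of all 15467 genes called (18.7% higher and 12.5% lower), so that a share of 2 in 5 is near the background. Slc1a3 had 18.5, 3.12, 14.2 and 9.88 CPM in peripheral axon Cre libraries and 2.497, 1.35, 0.560 and 0.572 CPM in soma Cre libraries, without overlap, as for 18.6% of all genes in that direction. Its log2 fold change was 3.01 (SE 0.777) with an adjusted p of 0.0128 from edgeR. The call was lost without soma Cre 7, without soma Cre 8 and in 1 fit over all groups of the batch, with adjusted p up to 0.201. Aldoc had 55.7, 62.6, 57.6 and 55.7 CPM in the axon and 300.2, 208, 335 and 380.3 CPM in the soma, a log2 fold change of -2.60 (SE 0.279) with an adjusted p of 7.86e-05. It kept its call in every alternative but the fit over all groups (adjusted p 0.0701). Aldh1l1 was called lower in the axon by limma voom (adjusted p 0.0315) and without peripheral axon Cre 2 (adjusted p 0.00332), but not by edgeR with all libraries.

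Schwann cell genes moved with Slc1a3 in this comparison. Of 10 such genes 9 were called higher in the peripheral axon, beside 18.7% of all genes. The list summed to 6984 to 17675 CPM there against 366 to 633 CPM in the somas. All 6 fibroblast genes and all 6 endothelial genes were also called higher. Their part in the rise of Slc1a3 was not tested. Among the controls, where no tagged ribosome is present, 3 of the 10 genes could be tested between sciatic nerve and ganglion and none was called, against 0.0802% of 13715 genes with edgeR. None of the 3 passed at an unadjusted p under 0.05 and none was called by DESeq2 or limma voom. Whether the difference between Cre and control was itself different between peripheral axon and soma was tested for 5 genes, and none was called, against 0.00636% of 15717 genes. None passed unadjusted, and none was called by DESeq2 or limma voom.

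Several genes used as astrocyte or precursor markers were present in the nerve although most of the set was not. Of the 22 further astrocyte genes 18 were tested between peripheral axon and soma among Cre libraries, 6 were called higher and 1 lower, beside 18.7% higher and 12.5% lower over all genes. Kcnj10, the gene of the potassium channel Kir4.1, is named after its values were seen: it had 226, 42.8, 60.3 and 168 CPM in the nerve and 4.15, 17.4, 6.06 and 28.4 CPM in the central axon Cre libraries, and rose over soma by 5.81 (SE 0.568, adjusted p = 4.72e-05). Kcnj10 is also in the satellite glia list, as is Glul of the further astrocyte list. Ndrg2, with the most CPM of the list in the central axon (373, 411, 520.4 and 694 CPM with Cre and 701, 710.2, 750.5 and 1323 CPM in controls), fell in the peripheral axon by 1.51 (SE 0.478, adjusted p = 0.0323). Of 6 precursor genes tested 5 were called higher in the nerve, against the same 18.7% of all genes, among them Ptprz1 with 2.05 (SE 0.422, adjusted p = 0.0039). Pdgfra, also named after its values were seen and the receptor by which precursors are usually sorted, had 96.3, 27.1, 21.7 and 60.5 CPM there and 9.06, 25.6, 17.2 and 25.8 CPM in the central axon Cre libraries, without a single count of Olig1 or Olig2 in the nerve. Fibroblasts also express Pdgfra, and the fibroblast list summed to 3809 to 6679 CPM in the peripheral axon Cre libraries. Which cells the Pdgfra counts came from was not tested.

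The genes closest in pattern were sought for 4 members over the 8 group means, as the mean absolute difference of centred log2(CPM + 1) values among 13899 genes, with smaller values for closer patterns. For Slc1a2 they were Wscd1 (0.39), Grin2b (0.44) and Cdh22 (0.45). Grin2b encodes a neuronal glutamate receptor subunit. For Olig1 they were Lamp5 (0.24), Sall3 (0.26) and Slc12a5 (0.28), where Slc12a5 encodes the neuronal chloride exporter KCC2 and Lamp5 is a dorsal horn neuron gene, also one of the spinal neuron list. For Gfap they were Mobp (0.55), Slc12a5 (0.61) and Sall3 (0.79). The closest member to Olig1 was Aqp4 (0.30). Gja1 had other neighbours, Apoe (0.26), Aldh1a2 (0.32) and Acsbg1 (0.39), and no member lay closer to it than Olig2 (1.57). Apoe, a lipid carrier made by astrocytes and satellite glia, had 1738, 2184, 2205 and 1956 CPM in central axon controls and 373, 470.4, 1599.9 and 501 CPM in batch 2 soma controls. All libraries of a group share their tissue and batch, so these likenesses describe the 8 groups only.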

How the data were processed

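RNA from affinity-purified ribosomes was sequenced in 31 libraries of 8 groups after low-input cDNA amplification. The authors deposited whole-number read counts per gene in 1 table for each batch, and all values here start from those counts. Per the submitters' processing notes, STAR 2.7.2b and mm10 were used. The counting tool, its strand setting and its treatment of reads with several matches are not given in the sources used here. All 55536 Ensembl identifiers matched GENCODE M21, which gave the symbols and exon lengths. A pair of soma control columns of batch 1 share a name and are called a and b. CPM is the count divided by the library total, computed here within each table, so that levels set across the tables differ in batch as well as tissue.

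Total counts were 3601399 to 19637292 per library. The detection floor was 3 counts, and 95% Wilson intervals were computed for CPM. Both cover counting error only, since amplified reads without molecular identifiers are not independent molecules. No pair of replicates agreed within sampling noise (over 45 pairs, chi-square divided by its degrees of freedom was at least 22.5), so none was merged. Titles call the samples biological replicates, but nothing says that they came from separate animals, so p-values measure the spread between these libraries, which may be technical.

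Groups were compared with edgeR 4.0.16 (R 4.3.3; quasi-likelihood test, TMM scaling, genes kept by filterByExpr with a minimum count of 10 and a minimum total of 15, Benjamini-Hochberg adjustment over all genes tested, threshold 0.05). The 3 comparisons with central axon libraries are descriptions, and the other 6, among them the interaction, were tested. Groups do not overlap where every normalised CPM of one lies beyond every one of the other. Alternatives were scaling by library size alone, RLE scaling, other low-count filters, all groups of a batch in 1 fit, DESeq2 1.42.0, voom in limma 3.58.1, a replicate block, and leaving out each library. On simulated counts, edgeR called 77% to 91.5% of 200 changed genes and at most 0.0604% of unchanged genes. Only well-counted genes were changed there, by a single large size and at a single dispersion. These shares therefore do not give the power for genes at a few counts.

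The 10 genes, the marker lists and the tests were chosen with earlier results of these data known. By rule, all 10 genes are given by level, fold changes are given for those called and for all in the central axon comparisons, and other lists by their counts and 2 highest members, some of which are not reported here. Other fold changes, and Mog, Kcnj10 and Pdgfra, were chosen after their values were seen. Promoter windows came from a RefSeq table. Python 3.11.15 with pandas 2.3.3, NumPy 2.4.6, SciPy 1.17.1 and Matplotlib 3.10.9 was used for summaries and plots.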

Additional observations from a re-analysis of the deposited data

Results flagged for a closer look

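Single libraries stood far from the rest of their group in 13 of the 70 sets examined. Each set was 1 gene in 1 group of 4 libraries, and chance flags about 1 in 20. Several flagged sets had no count in the other libraries. That rate need not hold there, so no excess over chance is read from the number. The sets with 40 counts or more in the library that stood apart come first. Gja1 was at 191 CPM (1555 counts) in batch 1 soma control 1. Aldoc was low in batch 1 soma Cre 4, at 138 CPM (1045 counts). Aldh1l1 was at 9.08 CPM (41 counts) in batch 2 soma control 8 and at 3.65 CPM (55 counts) in peripheral axon Cre 2. Gfap was at 5.29 CPM (40 counts) in batch 1 soma Cre 4, where the other 3 libraries had none.

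The others were at low counts. Aqp4 was at 3.95 CPM (16 counts) in batch 2 soma control 6 and at 0 in batch 1 soma control b, the lowest of that group. Olig1 was at 1.04 CPM (10 counts) in batch 1 soma Cre 1 and at 0.940 CPM (17 counts) in batch 2 soma control 5. Slc1a3 was at 0.863 CPM (8 counts) and Slc6a11 at 0.216 CPM (2 counts) in batch 1 soma control 3. Slc6a11 was at 0.578 CPM (9 counts) in batch 2 soma Cre 6, and Olig2 at 0.265 CPM (2 counts) in batch 1 soma Cre 4. No cause was tested for any of these.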

How the results depend on the processing

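The alternatives were followed for 36 fold changes: those of the central axon comparisons, those called, and those of Gja1 and Aldoc singled out. They gave 514 values, of which 457 counted as the same. In the central axon comparisons this means a move within the spread between replicates, and in the tested ones an unchanged call. Size was not judged in the tested ones, where Gja1 in batch 1 somas ran from -8.65 to -0.62 without a call. In the central axon comparisons 47 values moved by more than the spread, and in the tested ones 4 lost a call and 6 gained one. In 3 the sign changed, none of them called: Olig2 between central axon Cre and control without control 3 (0.84) and with the replicate block, and Gja1 with the block (below). Uncalled genes outside this set varied too. Aldh1l1 in batch 1 somas ran from -1.96 to 3.00, and in the peripheral axon Slc1a2 ran from -0.57 to 7.19 and Aldoc from -0.05 to 3.32. In 1 fit over all groups of the batch, 1 of the 10 genes was called in batch 1 somas and 0 between peripheral axon and soma, where the fit of the compared groups called 0 and 2. In batch 2 somas scaling by library size alone and DESeq2 each called 1. The causes were not tested. Leaving out 1 library at a time, the genes of the set that did not overlap numbered 0 to 3 between central axon Cre and control, 8 to 10 between central axon and soma with Cre and 7 to 9 without. Over all genes the numbers rose too, to 1420 to 2816 (1155 with all libraries), 3555 to 5146 (3207) and 1345 to 2719 (1253). Genes of the set that were called numbered 0 to 2 in batch 2 somas, 1 to 3 between peripheral axon and soma with Cre, and 0 in peripheral axon, batch 1 somas, control axon against soma and the interaction. Correlations of same-numbered libraries ran from -0.118 to 0.209, and in no comparison were all over 0.1, so the numbers were not taken to pair them. The highest set was that of central axon and soma with Cre, at 0.196, -0.00494, 0.0876 and 0.184. With a replicate block 0 of the 10 were called in peripheral axon or either soma batch, Olig2 was at 0.64 between central axon Cre and control, and Gja1 at -0.55 between central axon and soma controls. The pairing cannot be made for peripheral axon against soma, which share no numbers.

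Counts over all genes depended more on the setting. In batch 1 somas 516 genes were called, but 2244 with library size alone, 1700 with no filter, 2114 with all groups in 1 fit, 1902 by DESeq2, 0 by voom, 0 with the replicate block and 0 to 3094 with 1 library left out. In batch 2 somas 0 were called, but 257 with library size alone, 21 with RLE, 162 with no filter, 21 with the stricter filter, 175 with all groups, 1163 by DESeq2 and 0 to 1826 with 1 left out. In the peripheral axon 0 became 1 with all groups and 27 by DESeq2. Between peripheral axon and soma 4818 became 1404 with all groups and 3220 to 6055 with 1 left out. Between the controls of nerve and ganglion 11 became 268 with no filter, 526 with all groups, 607 by DESeq2, 260 by voom and 0 to 43 with 1 left out, and in the interaction 1 became 23 with no filter, 352 by DESeq2, 2 by voom and 1 to 66 with 1 left out. In soma and nerve most of the set is at a few counts, which limits the precision of its values there.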
